A study of Oryza sativa with 2 samples.

Results

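The strongest hybridization signals of rice leaf RNA were examined on 2 single-colour arrays, 1 for leaves with a yellow tip and 1 for green leaves. A probe set, that is, a group of oligonucleotides on the array that reads 1 transcript, was taken when its deposited signal was at or above 20000 on both arrays. Control probe sets were left out, as were 8 bright probe sets of the Rubisco small subunit (RBCS), Rubisco activase (RCA) and a glycine decarboxylase subunit (GDCSH). This left 230 of 57258 rice probe sets, or 0.402%. They covered 152 single genes, of which 47 had a gene name and 105 only a locus number, while 6 probe sets were assigned to several genes and 50 had no gene listed. The signals of both arrays chose the probe sets, so their levels and differences are descriptions and carry no test.

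The yellow leaf tip array held RNA from leaves of F9Y recombinant inbred lines, labelled mutant and sampled in the vegetative stage, and the green array held RNA from leaves of F9G recombinant inbred lines, labelled normal green and sampled in the same stage. A recombinant inbred line is fixed by repeated selfing after a cross. The series deals with SA0420, a mutant of rice that senesces early, and asked what happens at the molecular level when a leaf tip yellows. The labels of both samples name the leaf in one field and the leaf tip in another, and the number of plants or lines behind each RNA was not stated in the labels used here. There was 1 array for each kind of leaf and no replicate, so every difference below compares 2 arrays, not 2 conditions. The lines and the yellowing differed together between the arrays, so the 2 cannot be told apart. In bulk leaf RNA, fewer cells of a type and less RNA per cell cannot be told apart.

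In a mature leaf much of the messenger RNA serves photosynthesis. Light-harvesting proteins and photosystems capture light in the thylakoid membrane, plastocyanin, the cytochrome complex and ferredoxin carry the electrons, and the Calvin cycle fixes carbon. Photorespiration recycles the product that Rubisco makes when it takes oxygen in place of carbon dioxide, with steps in chloroplasts, peroxisomes and mitochondria. During senescence a leaf dismantles its chloroplasts and exports the nitrogen held in them.

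The abundant transcripts differed little in size between the arrays. After the centring described below, none of the 230 probe sets was 2-fold apart, against 1 without centring. With centring, 205 (89.1%) lay within 0.5 on the log2 scale, a fold of 1.41. Among all 28629 kept rice probe sets, those whose mean signal passed the median, 12.1% were at least 2-fold apart (5.82% higher and 6.29% lower in yellow leaf tips) and 62.6% lay within 0.5. After a loess on signal level these calls were 1935 higher and 1323 lower, against 1665 and 1800 as reported here. These shares cannot be set against the members as a result, because a floor of 20000 on both arrays allowed them a log2 difference of only -1.81 to 1.51. The signals ran from 20098 through a median of 28249 to 55015 in yellow leaf tips, and from 20179 through a median of 34772 to 72493 in green leaves. On both arrays the brightest rice probe set was the same one, for which no gene is listed, at 55015 in yellow leaf tips, against 72493 in green leaves. Signal also depends on how well a probe binds, so the order of probe sets is not an order of transcript numbers.

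The members kept much of their order. Of the 50 brightest rice probe sets on the yellow leaf tip array, 37 were also among the 50 brightest on the green array, and 32 of these 37 were members. Across the 230 members the signals of the arrays had a Spearman correlation of 0.81, a description over probe sets that share the same RNA and arrays. Their share of the summed rice signal was 15.2% on the yellow leaf tip array, against 17.2% on the green array, a share of signal and not of molecules.

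Most members, 188 of 230, had a lower deposited value in yellow leaf tips. The deposited values share a trimmed mean of 500.1, but it leaves out the highest 2% and with them all members. The summed rice signal was 4.55e+07 in yellow leaf tips, against 4.82e+07 in green leaves, and the median rice probe set read 80.5 against 97.5. After the log2 difference (yellow leaf tip over green) was centred on the median of all kept probe sets, 177 (77.0%) were below 0, against 50% of all kept probe sets, and the median was -0.19, but it was 0.06 after quantile normalization and 0.02 after loess on signal level, so no direction can be given for the whole set. The SD among members was 0.25, and 0.24 after quantile normalization and after loess. The share below 0 differed with brightness: over all kept probe sets it was 51.1% at a mean signal of 100 to 1000, 41.6% at 1000 to 5000, 50.3% at 5000 to 10000, 59.4% at 10000 to 20000, 69.8% at 20000 to 30000 and 89.2% from 30000 upward. The 6 control probe sets for cre, a bacteriophage P1 transcript that array protocols add as a hybridization control, had signals of 22322 to 38831 in yellow leaf tips, against 15349 to 39721 in green leaves. All 6 cre probe sets were above 0, from 0.02 to 0.59 with a median of 0.16. Centred on cre, a choice made after seeing the data, the median of the members was -0.35. Whether the amount of cre was equal on both arrays was not stated in the labels used here, and the part of scaling in the members' shift was not tested.

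Sets chosen on 1 array at a time show how far the floor on both arrays narrowed the differences. Of 255 probe sets at or above 20000 in yellow leaf tips, whatever green leaves read, 8 were higher by at least 2-fold and none was lower, with an SD of 0.49. Of 310 probe sets at or above 20000 in green leaves, whatever yellow leaf tips read, 16 were lower by at least 2-fold and none was higher, with an SD of 0.45. So 25 probe sets were bright in yellow leaf tips only and 80 in green leaves only, and each choice of array fixes its own direction. Among named genes bright in green leaves only, the metallothionein gene MT2C had the lowest signal in yellow leaf tips, 7757 in yellow tips against 31946 in green leaves on the lowest of 4 probe sets, whose differences were -1.67 to -2.14. The thioredoxin gene TRXM had 14327 in yellow tips against 23646 in green leaves, and the gene listed as TPT, a name used for the triose phosphate translocator, had 15575 in yellow tips against 23401 in green leaves. CAT-A and GLO5 entered this group through a further probe set each, with 12042 in yellow tips against 20712 in green leaves and 15646 in yellow tips against 25967 in green leaves. Among those bright in yellow leaf tips only, MT1A, another metallothionein gene, had 21618 in yellow tips against 11606 in green leaves, RAP had 24251 in yellow tips against 17320 in green leaves, ARF had 22031 in yellow tips against 18442 in green leaves, the chalcone synthase gene CHS1 had 22348 in yellow tips against 19292 in green leaves, and the peroxiredoxin gene PRXIIC had 20087 in yellow tips against 19461 in green leaves. The members nearest to the floor were a probe set with no gene listed, LOC4331333 and LOC4333266, with lower signals of 20098, 20179 and 20283. Just outside lay a further probe set of LOC4330533 at 19889, a probe set with no gene listed at 19888 and a further probe set of LOC4328390 at 19885.

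The light reactions supplied 11 of the 47 named genes, on 14 probe sets. All 11 were below 0, with a median of -0.30, yet after quantile normalization 6 of 11 were, with a median of -0.01, and after loess 8 of 11, with a median of -0.08. All had a mean signal above 30000, where 89.2% of all kept probe sets were below 0 as reported here, with a median of -0.29. The count of 11 is therefore near what equally bright probe sets gave. Among the light-harvesting genes, CAB2R, which encodes a chlorophyll a/b binding protein, had 49129 and 38721 on its 2 probe sets in yellow leaf tips, against 58534 and 48042 in green leaves. The related RCABP89 had 31895 in yellow tips against 40594 in green leaves (-0.30), and RCABP69 had 34293 in yellow tips against 40556 in green leaves (-0.19). All 3 light-harvesting genes lay within a fold of 1.41.

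PSAH, a small subunit of photosystem I, was the farthest apart of the light-reaction genes, reading 28272 in yellow leaf tips, against 49132 in green leaves (-0.75, 1.68-fold lower). OEE3, of the oxygen-evolving complex of photosystem II, had 39225 in yellow tips against 52996 in green leaves (-0.38). Along the electron path, petC, the Rieske iron-sulfur protein of the cytochrome complex, had 37557 in yellow tips against 45634 in green leaves (-0.23), and PETE, plastocyanin, had 36565 in yellow tips against 44363 in green leaves (-0.23). The gene listed both as ADI1 and as ferredoxin had a mean of 39696 in yellow tips against 54094 in green leaves over 3 probe sets, which differed by 0.06 from each other (-0.39). LFNR1, which passes electrons from ferredoxin to NADP, had 30219 in yellow tips against 41887 in green leaves (-0.42). LIR1, a light-regulated protein that binds leaf ferredoxin-NADP reductase at the thylakoid, had 43394 in yellow tips against 56674 in green leaves (-0.33). PSAH, OEE3, ADI1, LFNR1, LIR1 and RCABP89 stayed below 0 under all 5 scalings used: centring on all kept probe sets, no centring, quantile normalization, loess and centring on cre. The plastid-encoded atpI, a membrane subunit of the chloroplast ATP synthase, had 50423 in yellow tips against 55611 in green leaves (-0.09), the smallest difference of the group, and its probe set carries the mark for possible cross-hybridization.

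Genes of photorespiration and of nitrogen reassimilation, counted together with PEX11-1, had the lowest median of the 6 groups that held at least 4 named genes. All 6 were below 0 under each of the 5 scalings, with a median of -0.48 as reported here, -0.26 after quantile normalization and -0.64 when centred on cre. All but PEX11-1 had a mean signal of 20000 to 30000, where 69.8% of all kept probe sets were below 0, with a median of -0.14. From 30000 upward, where PEX11-1 lay, 89.2% were below 0, with a median of -0.29. The count of 6 has to be read beside these shares, which are as reported here. Of all 230 members, 88 were below 0 under all 5 scalings. The glycolate oxidase genes GLO5 and GLO1, which act in the peroxisome, had 22505 in yellow tips against 33777 in green leaves (-0.54) and 21686 in yellow tips against 30047 in green leaves (-0.42). CAT-A, a catalase, an enzyme that breaks down hydrogen peroxide, had 23542 and 22540 in yellow leaf tips, against 34893 and 34932 in green leaves (-0.52 and -0.58). PEX11-1, of a family that acts in peroxisome division, had 24874 in yellow tips against 37297 in green leaves (-0.53). It is not an enzyme of either pathway, and the group median without it was not calculated.

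Ammonia set free in photorespiration is taken up again in the plastid by glutamine synthetase and glutamate synthase. GLN2, the plastid glutamine synthetase, had 20858 in yellow tips against 27430 in green leaves (-0.34), and Fd-GOGAT, the ferredoxin-dependent glutamate synthase, had 21758 in yellow tips against 27709 in green leaves (-0.30). Further probe sets of this group, all below the floor in yellow leaf tips, did not all repeat these differences: those of Fd-GOGAT gave -0.42 and -0.06, the dimmer one of GLN2 gave 0.15, with 769 in yellow tips against 716 in green leaves, and that of GLO1 gave 0.01, with 2286 in yellow tips against 2354 in green leaves. Those of GLO5 gave -0.53 and -0.68, and that of CAT-A gave -0.73.

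Carbon metabolism, apart from Rubisco, was represented by 4 named genes on both sides of 0. ALDP, the plastid aldolase of the Calvin cycle, had 33754 and 21470 in yellow leaf tips, against 42184 and 28298 in green leaves (-0.27 and -0.35), and 1 of these 2 probe sets stayed below 0 under all 5 scalings. A dimmer probe set of ALDP gave 0.24, with 1013 in yellow tips against 884 in green leaves. TPI, triosephosphate isomerase, had 23848 in yellow tips against 28200 in green leaves (-0.19), and GAPC, the cytosolic glyceraldehyde phosphate dehydrogenase, had 37062 in yellow tips against 36267 in green leaves (0.08). A further probe set of TPI gave 0.11, with 5967 in yellow tips against 5711 in green leaves. DPE2, which uses the maltose that leaf starch gives at night, had 36601 in yellow leaf tips, against 21817 in green leaves, a difference of 0.80 or 1.74-fold. That was the highest difference of all 230 probe sets, the next being 0.43 for LOC4335844, and it reached 2-fold after quantile normalization. LOC4352021 had 37723 in yellow tips against 54403 in green leaves (-0.48). It carries no Rubisco name in the gene table but is listed with RBCS1 on 4 of the probe sets that were left out, so it may belong with them.

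Metallothioneins, small proteins that bind metal ions through cysteine, gave both even and uneven readings. MT2A had 46366 in yellow leaf tips, against 48932 in green leaves (-0.03), whereas 3 dimmer probe sets gave 0.30, 0.32 and 1.81, the last with 444 in yellow tips against 116 in green leaves. MT2B had 36493, 32589 and 26265 in yellow leaf tips, against 55889, 42426 and 49028 in green leaves, with differences of -0.56, -0.33 and -0.85 that spanned 0.52. A further probe set of MT2B read only 4.55 in yellow tips against 23.6 in green leaves. The gene table lists MT2B also as OsMT2c, and MT2C also as OsMT2b, so the names of this pair are not settled. A probe set with no gene listed, whose name shares its first part with those of MT2B, had 27241 in yellow tips against 55064 in green leaves and the lowest difference of the 230, -0.96. All of these bright MT2B probe sets carry the mark for possible cross-hybridization, and how they divide the signal of related metallothioneins was not tested.

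Among redox genes, TRXH, a cytosolic thioredoxin, had 28654 in yellow tips against 37736 in green leaves (-0.35), and APX2, an ascorbate peroxidase of the cytosol, had 27344 in yellow tips against 31254 in green leaves (-0.14). GLYI-11, a glyoxalase that detoxifies methylglyoxal, had 32117 in yellow tips against 32081 in green leaves (0.05). OsCDSP32, a thioredoxin-like protein of the chloroplast, had 26590 in yellow tips against 22588 in green leaves (0.29), above 0 under all 5 scalings. Its further probe set had 8762 in yellow tips against 8557 in green leaves (0.08). The kept further probe sets of APX2 gave 0.05 and 0.50, on the other side of 0 from its bright one.

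The 9 genes of protein synthesis and turnover had differences of -0.06 to 0.18 with a median of 0.08, and 7 were above 0. The group moved with the scaling: all 9 were above 0 after quantile normalization, with a median of 0.30, and after loess, with a median of 0.27, and 8 were below 0 when centred on cre, with a median of -0.08. EF-1-alpha, the elongation factor that brings transfer RNA to the ribosome, had 23498 and 22095 in yellow leaf tips, against 24335 and 22643 in green leaves (0.00 and 0.01); it is 1 of 4 gene copies, to all of which 3 further members are assigned, so its signal cannot be told from theirs. The ribosomal protein genes QM1 and RPS21 had 21904 in yellow tips against 21696 in green leaves (0.06) and 24173 in yellow tips against 22820 in green leaves (0.13). A further probe set of RPS21 gave -0.08, and the kept ones of QM1 gave 0.02 and, at 153 in yellow tips against 65.8 in green leaves, 1.04. TCTP, a translationally controlled tumour protein homologue, had 29707 and 29565 in yellow leaf tips, against 34652 and 29588 in green leaves (-0.17 and 0.05).

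GOS2, a translation initiation factor gene whose promoter is used to drive transgenes in cereals, had 2 probe sets on opposite sides of 0. The first read 40078 in yellow tips against 49595 in green leaves (-0.26) and the other, marked for possible cross-hybridization, 32969 in yellow tips against 28663 in green leaves (0.25), a gap of 0.51. The Clp chaperone genes CLPC1 and CLPC2 of the chloroplast stroma had 23900 in yellow tips against 21810 in green leaves (0.18) and 24645 in yellow tips against 23750 in green leaves (0.10). FTSH2, a thylakoid protease that removes damaged photosystem II protein, had 26628 in yellow tips against 25687 in green leaves (0.10), and OC-I, oryzacystatin, an inhibitor of cysteine proteases, had 30016 in yellow tips against 29428 in green leaves (0.08). CLPC1 and the second probe set of GOS2 were above 0 under all 5 scalings.

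Quantile normalization and loess could move the gap between groups, whereas the other 3 scalings differ by a constant and cannot. The median of photorespiration and nitrogen genes, PEX11-1 included, minus that of protein synthesis and turnover genes was -0.56. It was also -0.56 after quantile normalization and after loess. For light-reaction genes the same gap was -0.38, -0.31 after quantile normalization and -0.35 after loess. The groups were put together with the values known, and with 1 array per kind of leaf these gaps have no test.

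Regulatory genes were also among the brightest. BIPP2C1, a protein phosphatase 2C, had 40974 in yellow leaf tips, against 63095 in green leaves (-0.57), while its further, dimmer probe set read 1153 in yellow tips against 959 in green leaves (0.31). PCL1, a clock transcription factor whose level follows the time of day, had 25274 in yellow tips against 33633 in green leaves (-0.36). BBD1, a bifunctional nuclease, had 21363 in yellow tips against 28528 in green leaves (-0.37), and SAP8, a stress-associated zinc finger protein, had 21977 in yellow tips against 29082 in green leaves (-0.35). These 4 stayed below 0 under all 5 scalings.

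The homeobox genes Hox16 and HOS59 had 23270 in yellow tips against 24449 in green leaves (-0.02) and 21771 in yellow tips against 24899 in green leaves (-0.14). A dimmer probe set of Hox16 gave -0.31, with 2598 in yellow tips against 3349 in green leaves. GF14F, a 14-3-3 protein, had 20854 in yellow tips against 22689 in green leaves (-0.07), and RAN2, a small GTPase of nuclear transport, had 27334 in yellow tips against 28300 in green leaves (0.00). The side of 0 of Hox16, HOS59, GF14F and RAN2 depended on the scaling. For membrane transport, the potassium transporter gene HAK5 had 21360 in yellow tips against 25666 in green leaves (-0.21), and the aquaporin gene PIP2-7 had 33160 in yellow tips against 38781 in green leaves (-0.18). A far dimmer probe set of HAK5 lay on the other side of 0, with 134 in yellow tips against 125 in green leaves (0.14). NDKR, a nucleoside diphosphate kinase, had 27680 in yellow tips against 26777 in green leaves (0.10).

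Most of the genes had no name beyond a locus number. The brightest of them by mean signal were LOC4324479, with 49788 in yellow tips against 67140 in green leaves on the first of 2 bright probe sets, and LOC4344899, with 49910 in yellow tips against 64010 in green leaves. Besides the brightest of all, 2 probe sets with no gene listed had 49953 in yellow tips against 62672 in green leaves and 47285 in yellow tips against 63231 in green leaves. The lowest differences besides those above were -0.75 for LOC4336028 (23748 in yellow tips against 41289 in green leaves), and -0.74 and -0.69 for LOC4341496, on 2 probe sets with 21211 in yellow tips against 36570 in green leaves and 24487 in yellow tips against 40827 in green leaves. Among members without a gene name the highest were LOC4335844 (27657 in yellow tips against 21206 in green leaves, 0.43), LOC4347800 (28487 in yellow tips against 22790 in green leaves, 0.37), LOC4337223 (29813 in yellow tips against 24252 in green leaves, 0.35) and a probe set with no gene listed (24603 in yellow tips against 21328 in green leaves, 0.26), all 4 above 0 under the 5 scalings. In all, 88 members were below 0 and 15 above 0 under all 5 scalings, and for 127 the side depended on the scaling.

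With no replicate, only the agreement between probe sets of a gene could be measured. For 19 genes with several member probe sets, the pooled SD of the difference within a gene was 0.13, a value that the floor on both arrays narrows. Over 309 genes with several probe sets among the brightest 20% of all kept probe sets it was 0.22. Both cover probes only, not plants or arrays. The 152 genes had 95 further probe sets outside the chosen set, of which 75 passed the filter on low signal. Of these 75, 50 lay on the same side of 0 as the bright probe sets of their gene and 54 lay within 0.5 of them. Between the arrays, 8 of the 75 were themselves at least 2-fold apart, against 12.1% of all kept probe sets. Among the 47 with a mean signal of at least 1000, a limit set after seeing the data, 35 lay on the same side, 39 lay within 0.5, and 2 were at least 2-fold apart (LOC4324621 at -1.03 and LOC4351694 at -1.37), against 6.42% of all kept probe sets of that signal.

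Lists of related genes were matched by name, while 105 of the 152 member genes had only a locus number, so a low count can reflect naming. QM1, a ribosomal protein gene among the members, was not on the ribosomal list. Likewise the member GOS2, a translation initiation factor gene, was not on the list of translation factors. The member OEE3 was not on the photosystem list. Of 12 photosystem and light-harvesting genes on the array, 8 had a member probe set. So did 3 of 7 photorespiration genes, 2 of 7 metallothioneins, 2 of 15 catalases and peroxidases, 1 of 9 carbon fixation genes, 1 of 33 thioredoxins and glutaredoxins, 1 of 9 translation factors and 1 of 22 cytosolic ribosomal proteins, and none of 5 ubiquitin or 5 lipid transfer genes. With the probe sets of RBCS, RCA and GDCSH counted, which were left out by choice, 3 of 9 carbon fixation and 4 of 7 photorespiration genes passed 20000 on both arrays. Of 22 genes in common use as expression references, EF-1-alpha and GAPC were members, and over the 21 that passed the filter the median was 0.17, 5 were below 0 and none was 2-fold apart. The list medians were -0.21 for photosystem and light-harvesting genes, with 1 of 12 past 2-fold upward and 0 downward. That 1 was an entry named FNR, with 2515 in yellow tips against 1254 in green leaves (1.04), far dimmer than LFNR1. For photorespiration genes the median was -0.58, with 1 of 7 past 2-fold downward and 0 upward. For ribosomal proteins it was 0.18, with none past 2-fold. Over all kept probe sets the median is 0 by construction, and 5.82% were past 2-fold upward and 6.29% downward.

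Of the 12 photosystem and light-harvesting genes, 8 thus passed the floor on both arrays. Lists of seed storage, anther, root phosphate transport and secondary wall genes had no member. Only 0.402% of rice probe sets were members, so a list without a member says little about tissue. The median rice probe set read 80.5 in yellow leaf tips, against 97.5 in green leaves. The highest of 8 seed storage genes read 822 in yellow leaf tips, against 1186 in green leaves, and of 2 anther genes 59.0 in yellow tips against 128 in green leaves. For 11 root phosphate transport genes it was 3694 in yellow tips against 2212 in green leaves, and for 12 secondary wall genes 2213 in yellow tips against 4551 in green leaves. The summed signals of these lists on the yellow leaf tip array, then the green array, were 1394 and 2179 for seed storage, 71.5 and 181 for anther, 12076 and 9564 for root phosphate transport, and 6408 and 7385 for secondary wall. RNA quality, read from the control probe sets for the 3' and the 5' end of rice transcripts, was given by a ratio of 2.14 in yellow leaf tips, against 2.40 in green leaves, for GAPDH and of 2.48 in yellow tips against 2.37 in green leaves for actin. For ubiquitin the ratio was 0.62 on both arrays, so it depends on the control used. Another actin pair read 5086 at the 3' end and 959 at the 5' end in yellow tips, against 3718 and 566 in green leaves. The control probe sets for ubiquitin, which would have passed the signal floor themselves, had 28286, 44267 and 45382 in yellow leaf tips, against 31366, 50969 and 50806 in green leaves, with differences of -0.10 to -0.15. The GAPDH control for the 3' end would have passed it too, with 25391 in yellow tips against 20521 in green leaves (0.36). Dimmer GAPDH controls for the middle and the 5' end gave 0.19 and 0.52, and those for rice actin 0.41 to 1.08. Far dimmer GAPDH controls of another design gave -1.69, -0.23 and 0.74.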

How the data were processed

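Biotinylated cRNA made from total leaf RNA was hybridized to single-colour oligonucleotide arrays, per the labels' protocols. For 57381 probe sets the authors deposited a linear intensity. The labels used here name neither software nor scaling. The trimmed mean without the lowest and highest 2% was 500.1 on both arrays. After 123 control probe sets were removed, log2 of value plus 22.6, the 25th percentile of all values, was taken, and yellow leaf tip minus green values were shifted to a median of 0 over those 28629 probe sets whose mean signal was at or above 86.0 (shift -0.05). Folds are on this scale. The number of arrays limits the precision, and no test was possible with 1 array for each kind of leaf.

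Genes came from the platform annotation, and all 152 were found in the RefSeq table of assembly ASM3414082v1. Most symbols there are locus numbers, so names were taken from its synonyms. Named in the text were all named members, of the others the 5 brightest and the 4 highest and 4 lowest by difference, the 3 probe sets on each side of the floor, further probe sets of some member genes, and, among genes with a name that were bright on 1 array only, the 5 furthest below 20000 on the other array. LOC4352021, LOC4324621 and LOC4351694 were chosen after their values were seen. The members, lists and groups were chosen with earlier results of these data known. Sequences and promoters were not analysed here, nor were wax genes. Python 3.11.15, pandas 2.3.3 and statsmodels 0.14.6 were used, and the calculation of differences was tested on simulated data.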

Additional observations from a re-analysis of the deposited data

How the results depend on the processing

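With 1 array per kind of leaf, only differences between probes and settings could be followed. The median difference of the members was 0.0612 after quantile normalization and 0.0186 after loess, against -0.19 as reported, and it stayed below 0 in the other alternatives run. Members below 0 numbered 88 after quantile normalization and 110 after loess. The count past 2-fold was 1 without centring, after quantile normalization and under a filter at the 75th percentile, and 2 when centred on the cre controls. A floor of 10000 gave 670 members, with 441 below 0, 571 within 0.5, 12 past 2-fold, and a signal share of 29.1% in yellow leaf tips, against 32.3% in green leaves. A floor of 30000 gave 95 members, with 84 below 0, 90 within 0.5, and 7.85% and 9.08% of the signal. Without possibly cross-hybridizing probe sets 99 members remained, with 75 below 0, 87 within 0.5, and 6.09% and 6.88% of the signal; these counts change because fewer or more probe sets enter. Among all kept probe sets, 1100 were higher and 863 lower by 2-fold with a pseudocount at the 50th percentile, 5333 and 5478 without a filter, and 582 and 433 under a filter at the 75th percentile. Of 57 probe sets of named genes, 28 changed side of 0 in at least 1 setting. Keeping RBCS, RCA and GDCSH in, or leaving LOC4352021 out (chosen after seeing the data), moved no value by more than 1.5 times. No paired analysis was possible because each group has 1 sample.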
